A study of Mus musculus with 2 samples.

Results

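The genes *Ccr7*, *S1pr1*, *S1pr4*, *Klf2* and *Cd69*, which guide lymphocytes into and out of lymphoid tissue, were followed through leukocytes of the twitcher (twi) mouse brain. They are 5 of the 27998 genes in the deposited gene table and were taken by symbol, and each symbol matched 1 row. UMIs (unique molecular identifiers, 1 per captured transcript) were counted in 1 library of WT cells (galc+/+) and 1 library of twi cells (galc-/-). The twi mutation removes galactosylceramidase, the lysosomal enzyme lost in globoid cell leukodystrophy. Both libraries held untreated C57Bl/6 cells from brain, sorted for CD45 at postnatal day 21, and in each the cells of 2 to 3 animals were pooled before the 10x Genomics 3′ v2 assay, so that no value can be assigned to an animal. With 1 library per genotype there was no replicate error and no test was made. Every interval is an exact 95% interval that covers counting error only.

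Naive and central memory lymphocytes circulate between blood and lymph nodes. CCR7 responds to the chemokines CCL19 and CCL21 and brings T cells into lymph nodes, while S1PR1 senses the sphingosine 1-phosphate gradient that draws lymphocytes back out. KLF2 is a quiescence factor that drives transcription of *S1pr1*. CD69 appears early after activation, binds S1PR1 and removes it from the surface, and is also a mark of T cells that stay in tissue. S1PR4 is a further sphingosine 1-phosphate receptor of lymphoid and myeloid cells. Cell position itself was not measured.

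In GRCm38, the build that the submitters' processing notes name as mm10, *Ccr7* lies at chr11:99144196-99155077 on the minus strand, *S1pr1* at chr3:115710433-115715072 on the minus strand, *S1pr4* at chr10:81497747-81500132 on the minus strand, *Klf2* at chr8:72319033-72321656 on the plus strand and *Cd69* at chr6:129267325-129275436 on the minus strand. The gene identifiers of the files matched this annotation for all 5. RefSeq promoter sequence (build GRCm38.p6) was at hand for 2 of the 5, *Klf2* and *S1pr4*. Both are shown because their sequence was available. *Klf2* had the largest counts of the 5 genes, and *S1pr4* is the receptor whose ratio in CD8 T cells crossed 1 under other processing. The bases upstream of the annotated gene start are given 5′ to 3′ on the strand of the gene, for *Klf2* the 221 bases of chr8:72318812-72319032 (71.5% G or C) and for *S1pr4* the 255 bases of chr10:81500133-81500387 (38.0% G or C). Capitals mark a match to the MEF2 consensus in *Klf2* and to CACCC, the core letters of KLF binding sites, in *S1pr4*, where it stands on the opposite strand.
Klf2: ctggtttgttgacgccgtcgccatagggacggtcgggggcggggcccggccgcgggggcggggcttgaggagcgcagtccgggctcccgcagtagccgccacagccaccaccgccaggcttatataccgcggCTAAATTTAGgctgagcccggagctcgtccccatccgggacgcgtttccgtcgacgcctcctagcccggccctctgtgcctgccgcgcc
S1pr4: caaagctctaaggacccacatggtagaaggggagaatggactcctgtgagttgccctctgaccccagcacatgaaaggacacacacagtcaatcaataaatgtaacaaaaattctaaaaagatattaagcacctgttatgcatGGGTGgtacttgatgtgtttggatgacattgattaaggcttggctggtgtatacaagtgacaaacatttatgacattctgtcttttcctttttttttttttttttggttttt

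Both strands of the 300-base RefSeq windows were searched, and in the 2 windows no match overlapped another. The MEF2 consensus stood in the *Klf2* window, with its first base 89 bases before the gene start, and in 0.559% of 32544 distinct promoter windows. CACCC was held by 57.7% of all windows. It occurred once in each of the 2 windows, in *Klf2* after the gene start and therefore outside the printed bases. GTAAACA, the core of forkhead sites, was in neither window and in 3.66% of all. A match describes letters only.

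The WT library held 1278 barcodes with 3749714 UMIs and the twi library 1220 barcodes with 4807539 UMIs, and no barcode sequence was shared. After removal of barcodes with over 15% mitochondrial UMIs, 1271 WT cells (median 2222 UMIs) and 1207 twi cells (median 3182 UMIs) remained. Classes were gated on marker UMIs that include no member. The CD8 T gate (*Cd3* and *Cd8* genes, no *Cd4*) held 101 WT and 431 twi cells, the CD4 T gate 47 and 72, the NK gate (*Ncr1*, *Klrb1c*, *Klre1*, no *Cd3*) 65 and 61, the B gate 544 and 148 and the neutrophil gate 198 and 50. Barcodes that met several gates, 99 in WT and 75 in twi, were set aside, most of them meeting a B or neutrophil gate together with a T gate. *Galc* had 4 UMIs in WT and 8 in twi, and because a 3′ count does not read the mutation it checks nothing about the labels. Free RNA was visible: the neutrophil transcripts *S100a8* or *S100a9* were seen in 92.1% of WT and 70.5% of twi CD8 T gate cells. Female cells were seen in the twi pool alone: 45.4% of its cells had *Xist* and no Y transcript, against 0 of the 1271 in WT (up to 0.236% allowed by a count of 0). Y transcripts without *Xist* marked 38.3% of the WT and 17.1% of the twi library.

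Over all cells, *Ccr7*, *S1pr1*, *S1pr4* and *Klf2* had lower levels and *Cd69* a higher level in twi. Levels are CPM, UMIs per 1000000 UMIs of the cells named, and ratios are CPM in twi over CPM in WT. *Ccr7* had 174 CPM in WT (650 UMIs) and 109 CPM in twi (521 UMIs), a ratio of 0.626 (0.557 to 0.703). *Klf2* had 1682 CPM in WT and 1020 CPM in twi, a ratio of 0.607 (0.584 to 0.630), and *Cd69* had 192 CPM in WT and 259 CPM in twi, a ratio of 1.34 (1.23 to 1.48). The ratio was 0.757 (0.652 to 0.879) for *S1pr1* and 0.871 (0.772 to 0.982) for *S1pr4*. The cells behind these sums differed between the libraries. The B gate held 47.4% of the *Ccr7* UMIs in WT and 17.9% in twi, and the CD8 T gate 21.7% in WT and 43.8% in twi. The gates were therefore taken one at a time.

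**Figure D1:**
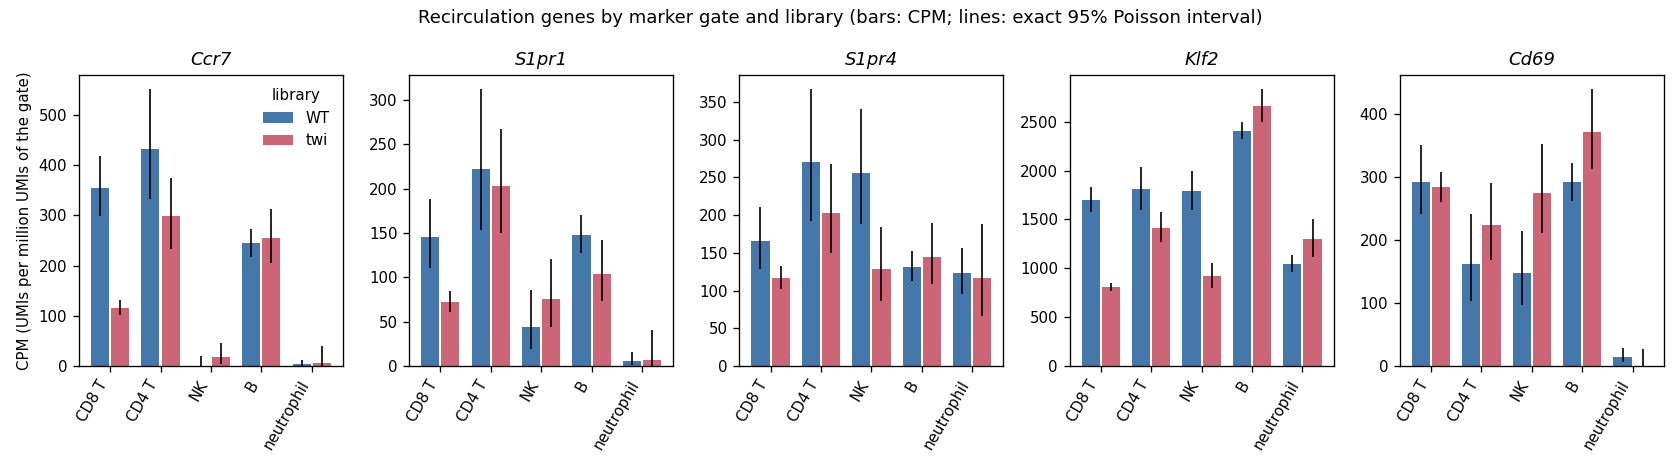
CPM (UMIs per 1000000 UMIs of the gate, y axis, a separate scale per gene) of the 5 genes in each marker gate (x axis) of the WT and twi libraries, where bars are CPM and lines exact 95% Poisson intervals. In the CD8 T gate *Ccr7* stands at 355 CPM in WT and 116 CPM in twi, whereas the 2 bars for the B gate, 244 and 254 CPM, have overlapping intervals.

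In the CD8 T gate, *Ccr7*, *S1pr1* and *Klf2* were lower in twi by more than counting error, while the *Cd69* interval included 1. *Ccr7* had 355 CPM (299 to 418, 141 UMIs) in WT and 116 CPM (101 to 132, 228 UMIs) in twi, a ratio of 0.327 (0.264 to 0.406). A UMI of *Ccr7* was seen in 61.4% of WT cells (51.2 to 70.9%, median 3351 UMIs per cell) and 24.4% of twi cells (20.4 to 28.7%, median 3948). With each cell thinned to 1000 UMIs, which left 99 WT and 425 twi cells, the shares were 30.3% and 8.24%. In cells that should lack *Ccr7*, a UMI was seen in 2 of 198 WT and 1 of 50 twi cells of the neutrophil gate (medians of 2185 and 1994 UMIs) and in 0 of 65 and 3 of 61 cells of the NK gate (medians of 2643 and 3087 UMIs). The shares in CD8 T cells lay above both. Among cells with a *Ccr7* UMI the mean was 2.27 UMIs per cell in WT and 2.17 in twi.

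Of the sphingosine 1-phosphate receptors, *S1pr1* had 146 CPM (111 to 189, 58 UMIs) in WT and 72.2 CPM (60.8 to 85.1, 142 UMIs) in twi, a ratio of 0.495 (0.362 to 0.684). It was seen in 40.6% of WT and 23.9% of twi cells, and in 15.2% and 7.29% after thinning. *S1pr4* had 166 CPM (128 to 211, 66 UMIs) in WT and 117 CPM (102 to 133, 230 UMIs) in twi, a ratio of 0.704 (0.534 to 0.941). Its shares of 40.6% in WT and 37.4% in twi had overlapping intervals. Thinning turned its ratio to 1.11 (0.587 to 2.27), so no direction is read for *S1pr4*. The other receptors were sparse: *S1pr2* had 0 UMIs in WT and 14 in twi, *S1pr5* had 2 and 11, and *S1pr3* had 0 in both.

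*Klf2*, the transcription factor, had 1701 CPM (1575 to 1835, 676 UMIs) in WT and 807 CPM (768 to 848, 1587 UMIs) in twi, a ratio of 0.475 (0.433 to 0.520). The median cell held 6 UMIs of *Klf2* in WT and 2 in twi. It was seen in 96 of the 101 WT cells (88.8 to 98.4%) and in 69.4% of twi cells (64.8 to 73.7%), and in 75.8% and 47.5% after thinning. The 5 WT cells without it were shallow, with a median of 1166 UMIs. The 132 twi cells without it had a median of 3676.5 UMIs, near the 4102 UMIs of the 299 twi cells with it, and 198 of the 431 twi cells held 3 or more UMIs. The twi cells therefore ran from none to many UMIs of *Klf2* at like depth.

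*Cd69*, the activation and retention marker, had 292 CPM (241 to 350, 116 UMIs) in WT and 283 CPM (260 to 308, 557 UMIs) in twi, a ratio of 0.971 (0.793 to 1.20). It was seen in 48.5% of WT cells (38.4 to 58.7%) and 53.1% of twi cells (48.3 to 57.9%), and in 23.2% and 23.5% after thinning. The ratio was 1.32 (0.861 to 2.11) after thinning and 1.28 (1.01 to 1.64) with gates set on thinned counts, so a difference was not resolved.

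Of the 5 genes, 3 (*Ccr7*, *S1pr1* and *Klf2*) were lower in twi by at least 1.5-fold in the CD8 T gate, where 8.5% of 6891 genes with at least 25 UMIs were, and 0 were higher, where 21.4% were. The median log2 ratio of those 6891 genes was 0.12, against -1.61 for *Ccr7*, -1.01 for *S1pr1*, -0.51 for *S1pr4*, -1.08 for *Klf2* and -0.04 for *Cd69*.

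**Figure D2:**
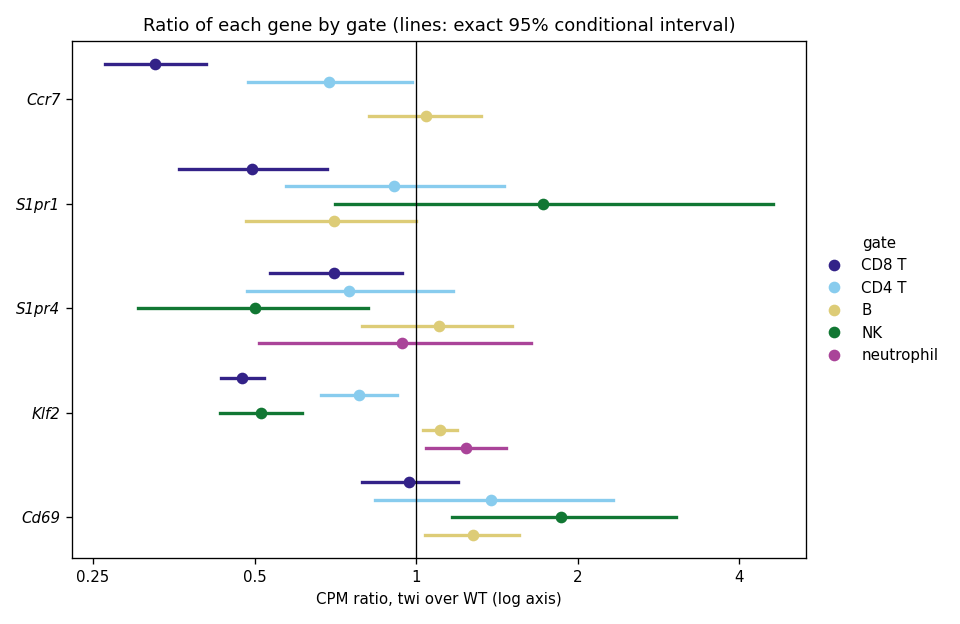
Ratio of CPM, twi over WT (log x axis), of each gene (y axis) in each gate with at least 25 UMIs over both libraries and UMIs in both, where points are ratios and lines exact 95% conditional intervals. In the CD8 T gate *Ccr7* (0.327), *Klf2* (0.475) and *S1pr1* (0.495) lie left of 1, and for *Klf2* the B gate (1.11) and the neutrophil gate (1.24) lie right of it, both with calls that depend on the settings.

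**Figure D3:**
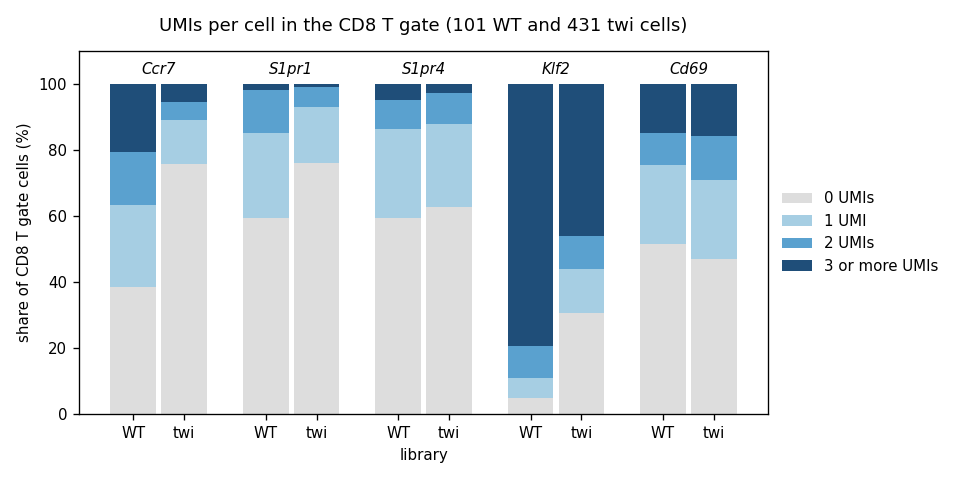
Share of CD8 T gate cells (y axis, %) with 0, 1, 2 and 3 or more UMIs of each gene in the WT and twi libraries (x axis). Cells with no *Klf2* UMI make up 4.95% in WT and 30.6% in twi, and cells with no *Ccr7* UMI 38.6% and 75.6%.

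A like comparison was made within cells of male animals, taken as those with Y transcripts and no *Xist*, 47 in WT and 59 in twi. Among them *Ccr7* had 346 CPM in WT and 200.1 CPM in twi, a ratio of 0.578 (0.392 to 0.843). *Klf2* had 1471 CPM in WT and 1188 CPM in twi, a ratio of 0.808 (0.685 to 0.951). Both ratios were nearer to 1 than over all cells of the gate, with intervals under 1. The choice needs a Y UMI and so also depends on depth. Median depths were 4006 UMIs in WT and 3509 in twi, against 3351 and 3948 in the whole gate. Within WT, *Klf2* had 1471 CPM in these cells against 1701 CPM in the whole gate. The part of this choice of cells in the shift was not tested. The effector genes *Cxcr6* or *Gzmb*, described next, were seen in 64.4% of these twi cells against 73.3% of the whole twi gate, and in 23.4% against 25.7% in WT. The ratio of *S1pr1* was 0.484 (0.253 to 0.890), that of *S1pr4* was 1.09 (0.693 to 1.72) and that of *Cd69* was 1.09 (0.765 to 1.56). Sex and the other differences between the pools cannot be told apart from genotype in 1 library each.

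The CD8 T gate was divided by 2 genes that are no members, *Cxcr6*, a chemokine receptor of tissue T cells, and *Gzmb*, the cytotoxic protease granzyme B. A UMI of either was seen in 26 WT cells, 25.7% of the gate, and in 316 twi cells, 73.3% of it. In the cells without either, *Ccr7* had 400 CPM in WT and 323 CPM in twi, a ratio of 0.810 (0.626 to 1.05), and *S1pr1* had a ratio of 0.779 (0.521 to 1.17). Both intervals include 1. *Klf2* was still lower in twi in these cells, with 1811 CPM in WT and 1301 CPM in twi, a ratio of 0.718 (0.635 to 0.812). Their median depths were 3251 UMIs in WT and 3520 in twi.

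In the cells with *Cxcr6* or *Gzmb*, *Ccr7* had 268 CPM in WT (36 UMIs) and 53.0 CPM in twi (80 UMIs), a ratio of 0.198 (0.132 to 0.303). *Klf2* had 1486 CPM in WT and 658 CPM in twi, a ratio of 0.442 (0.380 to 0.518). *S1pr4* had 238 CPM in WT and 111 CPM in twi, a ratio of 0.466 (0.317 to 0.703), whereas in the cells without either gene its ratio was 1.06 (0.691 to 1.67). After thinning *S1pr4* was seen in 12% of the WT and 11.9% of the twi cells with *Cxcr6* or *Gzmb*, and no direction is read. The *S1pr1* interval included 1 (0.556, 0.307 to 1.09). Within the twi library, cells with *Cxcr6* or *Gzmb* over cells without had ratios of 0.164 (0.123 to 0.217) for *Ccr7*, 0.403 (0.285 to 0.571) for *S1pr1*, 0.506 (0.456 to 0.561) for *Klf2* and 1.17 (0.948 to 1.44) for *Cd69*. The interval for *Cd69* included 1, and so did that for *S1pr4* (0.804, 0.598 to 1.09). Within WT the ratios were 0.670 (0.445 to 0.986) for *Ccr7*, 0.564 (0.279 to 1.06) for *S1pr1*, 0.821 (0.692 to 0.970) for *Klf2* and 1.24 (0.832 to 1.82) for *Cd69*. For *S1pr4* the WT ratio was over 1, at 1.84 (1.10 to 3.07). After thinning *S1pr4* was seen in 12% of WT cells with *Cxcr6* or *Gzmb* and 10.8% of those without. *Ccr7* was seen in 65.4% of WT cells with *Cxcr6* or *Gzmb* and 60% of those without, against 13.6% and 53.9% in twi. Whether these 2 genes mark like cells in both libraries was not tested. A UMI of *Cxcr6* or *Gzmb* is easier to see in a deep cell, and the cells with one had medians of 4497.5 UMIs in WT and 4233.5 in twi.

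**Figure D4:**
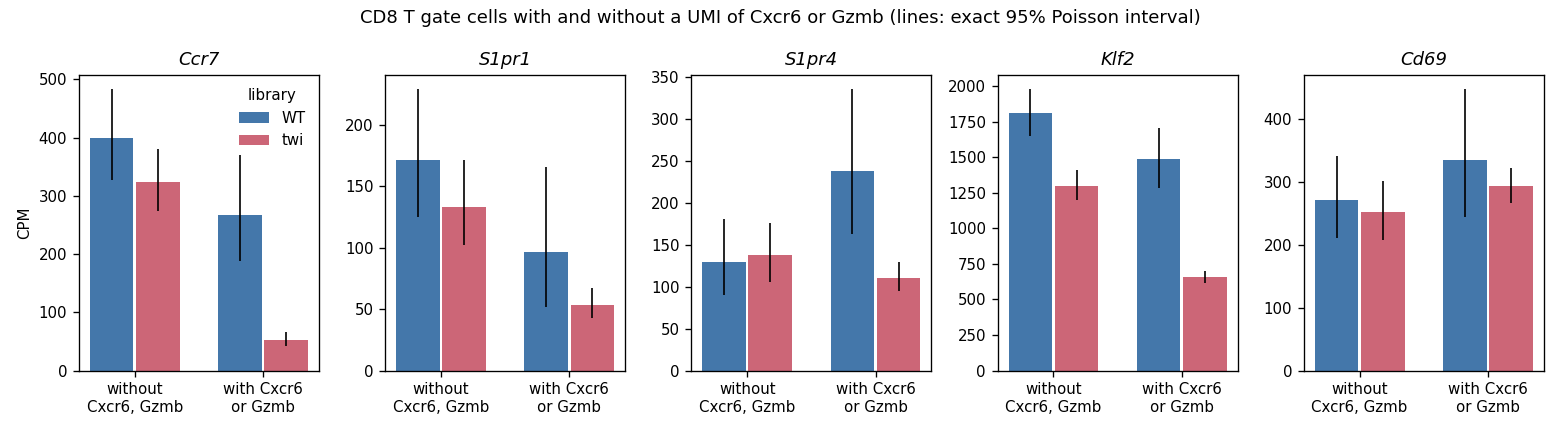
CPM (y axis, a separate scale per gene) of the 5 genes in CD8 T gate cells without and with a UMI of *Cxcr6* or *Gzmb* (x axis) in the WT and twi libraries, where bars are CPM and lines exact 95% Poisson intervals. *Ccr7* is lowest in the twi cells with *Cxcr6* or *Gzmb* (53.0 CPM), and the 4 *Cd69* bars lie between 251 and 334 CPM with overlapping intervals.

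Co-occurrence in single cells was read from *Klf2*, the most often detected of the 5 genes in this gate. Of the 299 twi CD8 T gate cells with *Klf2*, 33.4% (28.1 to 39.1%) had a UMI of *Ccr7* and 31.1% (25.9 to 36.7%) of *S1pr1*, against 3.79% (1.24 to 8.62%) and 7.58% (3.69 to 13.5%) of the 132 cells without *Klf2*. At 1000 UMIs per cell the shares were 12.9% (8.58 to 18.3%) against 4.04% (1.86 to 7.52%) for *Ccr7* and 10.9% (6.95 to 16.0%) against 4.04% (1.86 to 7.52%) for *S1pr1*, where the last 2 intervals overlap. *S1pr1* was seen in 46.7% of twi cells with *Ccr7* (median 4229 UMIs) and 16.6% of those without (median 3860 UMIs). After thinning the shares were 8.57% (1.80 to 23.1%) and 7.18% (4.82 to 10.2%). The first of these rests on 3 of 35 cells, too few to resolve whether this pair occurred together more often at equal depth. *S1pr4* was seen in 13.9% of thinned cells with and 11.2% of those without *Klf2*, with overlapping intervals. *Cd69* was seen in 53.5% of twi cells with *Klf2* and 52.3% of those without, and in 24.3% and 22.9% after thinning. In WT only 5 cells lacked *Klf2*, too few to set against the rest.

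Cells with no UMI of *Ccr7*, *S1pr1*, *S1pr4* or *Klf2* numbered 3 of 101 in WT (0.617 to 8.44%) and 86 of 431 in the twi CD8 T gate (16.3 to 24.0%), and made up 14.1% and 42.8% after thinning. The 86 twi cells had a median of 3281 UMIs, and 52.3% of them (41.3 to 63.2%) carried *Cd69*. All of these 4 transcripts were seen in 13.9% of WT and 5.34% of twi cells, and 65.2% of those 23 twi cells carried *Cd69* (42.7 to 83.6%). Cells with *Ccr7*, *S1pr1*, *Klf2* and also *Cd69* made up 15.8% of the WT gate (9.33 to 24.4%) and 6.26% of the twi gate (4.17 to 8.98%). Those with the first 3 and no *Cd69* made up 10.9% (5.56 to 18.7%) and 4.64% (2.86 to 7.08%), with overlapping intervals. After thinning the cells with all 4 were 1 of 99 in WT and 1 of 425 in twi, too few to resolve a difference. Cells with none of *Ccr7*, *S1pr1* and *Klf2* were more frequent in twi. As shares of the whole gate, those that carried *Cd69* made up 0.990% in WT and 14.6% in twi, and those without it 1.98% and 12.993%. They were 1 of the 49 WT and 63 of the 229 twi cells with *Cd69*, and 2 of 52 and 56 of 202 without it. After thinning the shares of the whole gate were 2.02% and 11.3% with *Cd69*, and 14.1% and 37.2% without it. These were 2 of the 23 WT and 48 of the 100 twi cells with *Cd69*, and 14 of 76 and 158 of 325 without it. The higher share of cells with none of these 3 was therefore seen in cells with and in cells without *Cd69*.

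Genes linked to *Ccr7* were read in each library by setting the cells with a *Ccr7* UMI against those without. The lists were written by hand for this purpose, and a gene is called higher or lower where its interval excludes 1. The share of all genes called by this rule in the same division of cells was not counted. The counts therefore describe the lists alone, here and in the divisions by other members below. Cells with *Ccr7* were deeper, with medians of 3850 against 2951 UMIs in WT and 4229 against 3860 in twi. In twi, 9 of 10 naive and central memory genes were higher with *Ccr7* and 0 were lower. *Igfbp4*, which encodes a binding protein of insulin-like growth factors, had 139 CPM with *Ccr7* and 6.87 CPM without, a ratio of 20.3 (10.4 to 44.1). *Dapl1*, a marker of naive T cells, had 365 and 21.3 CPM, a ratio of 17.1 (11.7 to 25.9). *Lef1*, a transcription factor of naive T cells, had 414 and 104 CPM, a ratio of 3.99 (3.22 to 4.95). Among the members *S1pr1* had a ratio of 3.02 (2.14 to 4.26) and *Klf2* 2.19 (1.98 to 2.42).

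In the other direction, 9 of 10 effector genes and 9 of 9 interferon response genes were lower in twi cells with *Ccr7*. *Gzmb* had 43.1 CPM with *Ccr7* and 500.1 CPM without, a ratio of 0.0862 (0.0537 to 0.132). *Ccl5*, a chemokine of effector cells, had a ratio of 0.354 (0.333 to 0.376) and *Isg15*, an interferon-induced ubiquitin-like modifier, a ratio of 0.470 (0.381 to 0.575). Of 6 lymph node entry genes besides *Ccr7* itself, 3 were lower and 0 higher. Of 12 tissue retention genes, 6 were lower and 0 higher. *Cxcr6* had a ratio of 0.361 (0.293 to 0.440) and *Rgs1*, a regulator that dampens chemokine receptor signaling, a ratio of 0.388 (0.304 to 0.491).

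In WT, where 62 of 101 cells carried *Ccr7*, effector genes were again lower with it, 7 of the 8 that had enough UMIs, and *Gzmb* had a ratio of 0.0818 (0.0284 to 0.193). Of 4 lymph node entry genes with enough UMIs besides *Ccr7*, 2 were lower and 0 higher. Of the naive and central memory genes 4 of 10 were higher. *Dapl1* had 431 CPM with *Ccr7* and 491 CPM without, a ratio of 0.880 (0.646 to 1.20), *Lef1* a ratio of 1.09 (0.808 to 1.49) and *Klf2* a ratio of 1.07 (0.910 to 1.26). WT cells without a *Ccr7* UMI thus still held *Dapl1*, *Lef1* and *Klf2* with ratios near 1, and of 8 interferon response genes 4 were higher with *Ccr7* and 0 lower. Whether the libraries differ in these ratios was not tested.

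**Figure D5:**
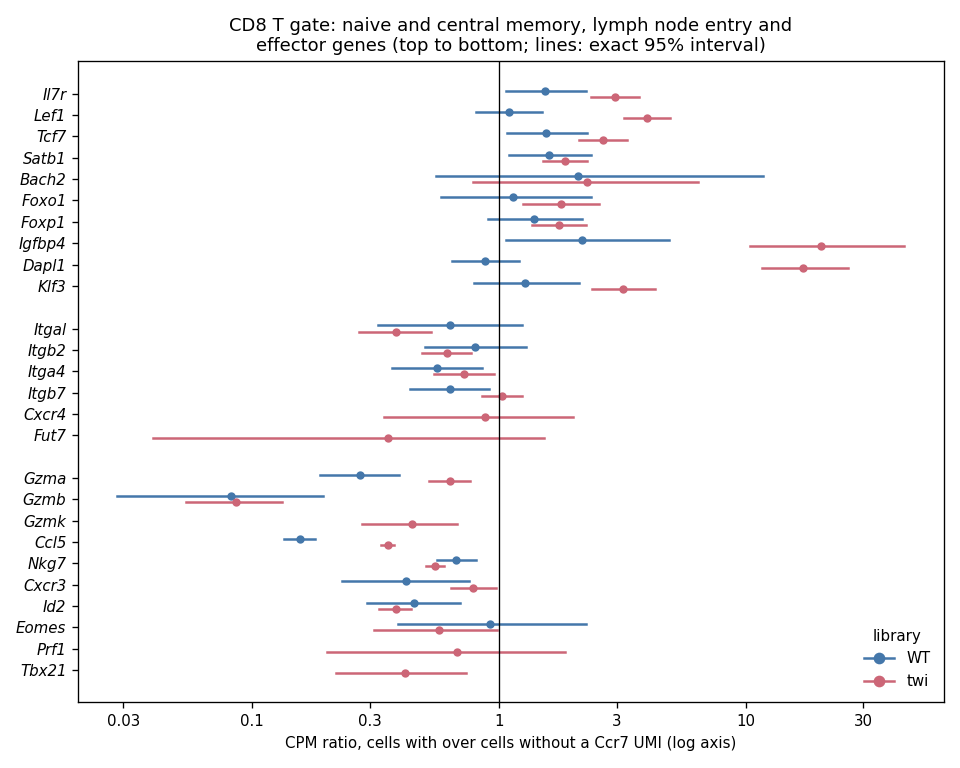
Ratio of CPM in CD8 T gate cells with over cells without a *Ccr7* UMI (log x axis) for naive and central memory, lymph node entry and effector genes (y axis, in that order) with UMIs on both sides, where points are ratios and lines exact 95% conditional intervals, in the WT and twi libraries. In twi *Igfbp4* (20.3) and *Dapl1* (17.1) lie farthest to the right, and *Gzmb* lies at 0.0818 in WT and 0.0862 in twi.

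Divided by *Klf2* in twi, 8 of 10 naive and central memory genes were higher with it and 9 of 9 interferon response genes lower. Of 11 immediate early genes, which dissociation of tissue can raise, 5 were higher with *Klf2* and 0 lower. *S1pr1*, which KLF2 is known to drive, had a ratio of 4.75 (2.57 to 9.74). *Rgs1* was lower, with a ratio of 0.574 (0.491 to 0.671). Divided by *S1pr1*, 6 of 10 naive and central memory genes were higher and 7 of 10 effector genes lower. Divided by *Cd69*, 0 of 10 naive and central memory genes were higher and 2 were lower, *Dapl1* with a ratio of 0.603 (0.457 to 0.795) and *Klf3* with a ratio of 0.605 (0.451 to 0.811). Effector genes went both ways with *Cd69*, 3 of 10 higher and 2 lower, with a median log2 ratio of -0.02. Of 9 interferon response genes 4 were higher and 0 lower. *Gzmb* was among the higher, at 435 against 305 CPM, a ratio of 1.43 (1.22 to 1.67). *Isg15* was higher too, with a ratio of 1.84 (1.57 to 2.16), while *S1pr1* had a ratio of 0.821 (0.582 to 1.16). *Klf2* was slightly lower with *Cd69*, at 751 against 889 CPM, a ratio of 0.845 (0.765 to 0.934), and *Ccr7* had a ratio of 0.730 (0.558 to 0.956). In WT *Klf2* was on the other side, at 1854 CPM with and 1482 CPM without *Cd69*, a ratio of 1.25 (1.07 to 1.47). In twi *Cxcr6* was at 512 CPM with and 490 CPM without *Cd69*.

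The pathway genes around the 5 members were then compared between the libraries in the CD8 T gate. Listed genes are called by their intervals, a rule for which no share over all genes was counted. The 1.5-fold background given above follows another rule, so these counts describe the lists alone. All 10 naive and central memory genes were lower in twi, with a median log2 ratio of -1.23. *Dapl1* had 453 CPM in WT and 110 CPM in twi, a ratio of 0.244 (0.199 to 0.299), and *Il7r*, the survival receptor for interleukin 7, had 390 and 165 CPM, a ratio of 0.423 (0.348 to 0.515). Of 7 lymph node entry genes 2 were lower, namely *Ccr7* and *Itga4*, the integrin α4 chain (0.694, 0.550 to 0.881). *Itgal* and *Itgb2*, the chains of LFA-1, were higher, with ratios of 1.75 (1.26 to 2.49) and 1.34 (1.06 to 1.72). Of 11 measured genes of the sphingosine 1-phosphate axis 2 had intervals under 1, *S1pr1* and *S1pr4*, the latter with the limit given above. The G protein gene *Gnai2* (332 and 382 CPM, 1.15, 0.955 to 1.39) and the exchange factor gene *Arhgef1* (0.896, 0.756 to 1.07) had intervals that included 1.

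Of 7 KLF family genes 3 were lower. *Klf3*, a repressor that is itself a KLF target, had 211 CPM in WT and 98.2 CPM in twi, a ratio of 0.464 (0.358 to 0.607), while *Klf6* was at 0.812 (0.669 to 0.990) and *Klf13* at 0.934 (0.718 to 1.23). Tissue retention genes were higher in 8 of 12 cases and lower in 0. *Cxcr6* had 85.6 and 503 CPM, a ratio of 5.88 (4.18 to 8.54), and *Rgs1* had 57.9 and 344 CPM, a ratio of 5.94 (3.93 to 9.44). *Itgae*, the integrin αE chain, had 30.2 and 35.1 CPM, with an interval that included 1. *Cd69*, the other surface marker of retained T cells, was described above at a ratio near 1. Effector genes were higher in 7 of 10 cases and interferon response genes in 9 of 9.

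Of the immediate early genes, which dissociation of tissue can raise and with which *Cd69* is often induced, *Hspa1a* was higher in twi (1.11, 1.004 to 1.22) and *Fos* lower (0.432, 0.372 to 0.502), of 11 genes. Their summed level was 4301 CPM in WT and 3952 CPM in twi. Cells with transcripts of the cycling genes *Mki67*, *Top2a*, *Ccnb2* or *Birc5* made up 10.9% of WT and 20.9% of twi CD8 T gate cells. Without them the ratio was 0.355 (0.281 to 0.449) for *Ccr7* and 0.488 (0.441 to 0.540) for *Klf2*. Markers of migratory dendritic cells, another cell type with *Ccr7*, had 0 UMIs in WT and 3 in twi over 5 genes. Of 4 monocyte genes, 3 were seen in WT and 4 in twi, with summed levels of 876 and 2249 CPM. Most of that was *Ly6c2* (820 and 2104 CPM), which memory CD8 T cells also express, while *Fn1* had 0 and 7 UMIs. The 1 measured marker of γδ T cells, *Cd163l1*, was at 17.6 CPM in WT (5.94% of cells) and 79.4 CPM in twi (11.6% of cells), and the gate does not exclude such cells. All 4 erythroid genes were seen in both, at 1168 CPM in WT and 670 CPM in twi. The part of these transcripts in the member ratios was not tested.

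In the CD4 T gate *Klf2* was lower in twi, and *Ccr7* was lower with an interval that included 1 in 3 of 8 alternative settings, namely doubled marker minimums, barcodes of several gates kept and thinning. *Ccr7* had 432 CPM (333 to 551, 64 UMIs) in WT and 298 CPM (233 to 375, 72 UMIs) in twi, a ratio of 0.689 (0.485 to 0.981). *Klf2* had 1808 and 1414 CPM, a ratio of 0.782 (0.664 to 0.921). The intervals of *S1pr1* (0.910, 0.573 to 1.46), *S1pr4* (0.751, 0.484 to 1.17) and *Cd69* (1.38, 0.838 to 2.33) included 1. None of the 5 genes passed 1.5-fold in this gate, where 12.1% of 2091 genes were lower and 14.1% higher by as much. After thinning *Ccr7* was seen in 16 of 46 WT and 14 of 70 twi cells. *Cxcr6* was higher, with 5 UMIs against 37 and a ratio of 4.53 (1.78 to 14.8). Of 11 immediate early genes 4 were lower and 0 higher in twi, with summed levels of 6315 CPM in WT and 4782 CPM in twi. Their part in the *Klf2* value of this gate was not tested.

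Cells with *Cd3* transcripts and neither *Cd4* nor *Cd8* numbered 138 in WT and 283 in twi. They can be T cells whose coreceptor was not captured or T cells that lack both coreceptors. The paper reports γδ T cells among its T cell populations, and the mix within this gate was not resolved. As in the CD8 T gate, *Ccr7* was lower, with 211 CPM in WT and 59.8 CPM in twi, a ratio of 0.283 (0.198 to 0.403), and so was *Klf2*, with 1536 and 906 CPM, a ratio of 0.590 (0.530 to 0.657). *S1pr1* had a ratio of 0.610 (0.412 to 0.913). *Cd69* was higher here, with 189 CPM in WT and 291 CPM in twi, a ratio of 1.54 (1.18 to 2.03), and after thinning it was seen in 13.9% of WT and 24.1% of twi cells.

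Most NK cells lack CCR7 and rely on S1PR5 as their sphingosine 1-phosphate receptor for egress. In the NK gate *Ccr7* had 0 UMIs in WT, which allows up to 16.4 CPM, and 4 UMIs in twi. *Klf2* was lower, with 1790 CPM (1601 to 1994, 328 UMIs) in WT and 921 CPM (800.0 to 1055, 208 UMIs) in twi, a ratio of 0.515 (0.430 to 0.614). *S1pr4* had 256 CPM (47 UMIs) and 128 CPM (29 UMIs), a ratio of 0.501 (0.304 to 0.812). *S1pr5* had 32 UMIs against 21 and a ratio of 0.532 (0.292 to 0.952), for which no alternative setting was run. *S1pr1* was sparse, at 8 and 17 UMIs, with an interval from 0.705 to 4.62.

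*Cd69* in the NK gate had 147 CPM (27 UMIs) in WT and 274 CPM (62 UMIs) in twi, a ratio of 1.86 (1.17 to 3.05), whose interval included 1 in 3 of 8 alternative settings. In twi 4 of the 61 cells held 51.6% of its UMIs, with up to 11 in a cell. It was detected in 29.2% of WT and 34.4% of twi cells, and in 15.4% and 11.5% after thinning, so no direction is read from the share of NK cells with *Cd69*. Of the 4 members with at least 25 UMIs, *S1pr4* and *Klf2* were lower by at least 1.5-fold, where 14.3% of 2397 genes were, and *S1pr1* and *Cd69* higher, where 10.3% were. Thinning moved the ratio of *S1pr4* to 0.866 (0.383 to 1.92) and that of *Klf2* to 0.663 (0.480 to 0.911). After thinning *S1pr4* was seen in 20% of WT and 21.3% of twi NK gate cells, so no direction is read for it in this gate.

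The B gate gave the highest *Klf2* of the 5 gates in either library, and it was not lower in twi. *Klf2* had 2408 CPM (2323 to 2495, 3041 UMIs) in WT and 2664 CPM (2499 to 2836, 974 UMIs) in twi, a ratio of 1.11 (1.03 to 1.19). With barcodes of several gates kept the ratio was 0.957 (0.897 to 1.02), so its direction depended on the gate. *Ccr7* had 244 and 254 CPM, a ratio of 1.04 (0.818 to 1.32), and *S1pr4* 131 and 145 CPM, a ratio of 1.10 (0.794 to 1.51). *S1pr1* had 148 CPM (187 UMIs) in WT and 104 CPM (38 UMIs) in twi, a ratio of 0.702 (0.482 to 0.999), and after thinning it was seen in 17.9% and 8.22% of cells. *Cd69* had 291 and 372 CPM, a ratio of 1.28 (1.04 to 1.56), with like shares of cells (34.0% and 35.8%). The intervals of *S1pr1* and of *Cd69* each included 1 in 3 of 8 alternative settings. None of the 5 passed 1.5-fold, where 13.2% of 6487 genes were lower and 7.17% higher by as much.

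The B gate joined mature and early B lineage cells. Transcripts of the early B genes *Vpreb1*, *Igll1*, *Rag1* or *Dntt*, or of the cycling genes, marked 28.5% of the gate in WT and 21.6% in twi, a division chosen after the values were seen. In WT, cells without these transcripts had 317 CPM of *Ccr7* against 127 CPM in cells with them, a ratio of 2.49 (1.88 to 3.35), at like median depth (1998 and 2062 UMIs). The ratio was 1.98 (1.41 to 2.84) for *S1pr1*, 1.70 (1.57 to 1.85) for *Klf2*, 1.11 (0.802 to 1.55) for *S1pr4* and 1.24 (0.993 to 1.55) for *Cd69*. In twi it was 3.35 (1.78 to 6.97) for *Ccr7*, 2.97 (1.15 to 9.73) for *S1pr1* and 2.47 (2.07 to 2.96) for *Klf2*. Between the libraries, the cells without these transcripts had a *Klf2* ratio of 1.14 (1.05 to 1.24), the cells with them 0.786 (0.656 to 0.937).

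In the neutrophil gate *Ccr7* and *S1pr1* had 3 UMIs or fewer in either library. *Klf2* had 1048 CPM (585 UMIs) in WT and 1300 CPM (179 UMIs) in twi, a ratio of 1.24 (1.04 to 1.47), and was seen in 69.2% of WT cells (62.3 to 75.5%) and 86.0% of twi cells (73.3 to 94.2%). The interval of this ratio included 1 in 6 of 8 alternative settings, so no direction is read. In WT 1 cell held 46 of its UMIs. *S1pr4*, a receptor that neutrophils are known to carry, had 124 and 116 CPM, a ratio of 0.940 (0.509 to 1.64). *Cd69* had 8 UMIs in WT and 0 in twi, where 0 counts allow up to 21.8 CPM. Neither of the 2 members with at least 25 UMIs, *S1pr4* and *Klf2*, passed 1.5-fold, where 14.9% of 2143 genes were lower and 17.5% higher by as much. Of the immediate early genes 5 of 10 were higher and 0 lower in twi here, *Fos* among them with a ratio of 1.71 (1.48 to 1.96), and their part in the *Klf2* value was not tested.

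The order of the gates differed by gene. In WT *Ccr7* ran from CD4 T (432 CPM) over CD8 T (355 CPM) and B (244 CPM) to neutrophil and NK, and the interval of CD4 T over CD8 T included 1. In twi the CD8 T gate stood after B, at 116 against 254 CPM. *S1pr1* was highest in the CD4 T gate in both libraries, followed by B. The interval included 1 for B over CD8 T in WT (1.01, 0.752 to 1.39) and for B over NK in twi (1.38, 0.761 to 2.61). *S1pr4* was the most even, and in twi each gate and its neighbour in the order, from CD4 T (203 CPM) to neutrophil (116 CPM), had a ratio whose interval included 1. Gates further apart were not all alike: in twi *S1pr4* had 203 CPM (150 to 268) in CD4 T and 117 CPM (102 to 133) in CD8 T, intervals that do not overlap. *Klf2* was highest in B in both libraries and lowest in neutrophil in WT (1048 CPM) and in CD8 T in twi (807 CPM). In twi the interval of NK over CD8 T for *Klf2* included 1 (1.14, 0.982 to 1.32). *Cd69* led in CD8 T (292 CPM) and B (291 CPM) in WT, with a ratio of 1.00 (0.806 to 1.24), and in B in twi.

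Over the 10 sums of 5 gates and 2 libraries, the genes most like each member by Pearson's r of log2(CPM + 10) among 5739 genes with at least 100 UMIs were listed as a description. The points share libraries and depth, and genes with few UMIs can rank high. For *Klf2* the first was *Tsc22d3* (r = 0.972), the glucocorticoid-induced leucine zipper gene, and for *Ccr7* it was *Pik3ip1* (r = 0.988), an inhibitor of PI3 kinase. For *S1pr1* it was *Prmt3* (r = 0.975), for *S1pr4* *Hexim1* (r = 0.931) and for *Cd69* *Nono* (r = 0.994). Among the members themselves *Ccr7* and *S1pr1* gave r = 0.863, *S1pr1* and *Cd69* r = 0.850, *Klf2* and *S1pr1* r = 0.422, and *S1pr4* and *Ccr7* r = 0.225.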

How the data were processed

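The authors deposited UMI counts per gene and cell barcode, not normalized, for 1 library of CD45+ brain cells per genotype. Reads had been aligned with STAR and restricted by mapping quality, and cells had been called by an adaptive threshold on UMIs. The submitters' processing notes name Cell Ranger 2.1.1 and mm10. Barcodes with over 15% mitochondrial UMIs were still present and were removed.

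Cells were gated by marker UMIs: at least 1 for the *Cd3*, *Cd8* and *Cd4* genes, a sum of 2 for NK and B markers, 20 of *S100a8* and *S100a9* with 2 of other granulocyte genes for neutrophils, and 3 of the *C1q* genes. Gated cells can still be mixtures; no doublet caller was run, and barcodes meeting several gates were set aside. For the UMI sum of each library and gate, exact intervals were computed in scipy 1.17.1, Poisson for CPM, conditional binomial for ratios and Clopper-Pearson for shares; a count of 0 was taken to allow 3 counts. Depth per cell differed between libraries, so shares were also read at 1000 UMIs per cell, which left out 106 WT and 20 twi cells. Listed genes needed 10 UMIs and were called by their intervals, and the share of all genes called in this way was not counted. Intervals were tested on simulated Poisson counts, the model that they assume. That test therefore cannot show how they hold where UMIs cluster in few cells. The members, gates and gene lists were chosen with earlier results of these data known. Named genes are the members, genes of the lists and the 3 most like each member. Symbols with 2 rows (*Ccl19*, *Ccl21a*) were not measured, and 1 gene of the lists is not reported here. With 1 library per genotype there is no p-value. The alternatives were other mitochondrial limits, gates, scalings and thinning, and cells with Y transcripts only.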

Additional observations from a re-analysis of the deposited data

Results flagged for a closer look

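*Klf2* had ratios on different sides of 1 between gates under the same contrast of twi over WT, and the difference between gates was not tested. Its ratio of CPM was 0.475 in the CD8 T gate, 0.782 in the CD4 T gate and 0.515 in the NK gate, each with an interval under 1, against 1.11 in the B gate and 1.24 in the neutrophil gate, each with an interval over 1. The first 3 intervals stayed under 1 in each of the 8 or 9 alternative settings with an interval. The call was lost in 3 of 8 in the B gate, where the ratio was under 1 with barcodes of several gates kept, and in 6 of 8 in the neutrophil gate. No direction is therefore read in the B and neutrophil gates.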

How the results depend on the processing

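No paired analysis was possible because each genotype had a single library. Of 214 ratios under the alternatives, 190 stayed within the counting interval of the value reported, 21 moved outside it and 3 crossed 1 from an interval that had excluded 1. A further 20 crossed 1 from an interval that had included it, among them 5 of 10 for *Cd69* in CD8 T. Calls were lost in 3 of 9 settings for *S1pr4* in CD8 T, 3 of 8 for *Ccr7* in CD4 T, 2 of 8 for *S1pr4* and 3 of 8 for *Cd69* in NK, 3 of 8 each for *S1pr1*, *Klf2* and *Cd69* in B and 6 of 8 for *Klf2* in neutrophils. In CD8 T cells *S1pr4* crossed 1 when thinned to 1000 UMIs (1.11) and in cells with Y transcripts and no *Xist* (1.09), and *Klf2* in B cells did with barcodes of several gates kept (0.957). In cells with Y transcripts and no *Xist*, CD8 T ratios were 0.578 for *Ccr7* and 0.808 for *Klf2*, CD4 T ratios 0.425 for *Ccr7*, 0.601 for *Klf2* and 0.679 for *Cd69*, and *Cd69* had 1.14 in NK and 1.997 in B and *Klf2* 1.02 in neutrophils. Thinning gave 1.32 for *Cd69* in CD8 T, 1.41 for *S1pr4* in CD4 T, 0.866 for *S1pr4* and 0.663 for *Klf2* in NK, and 0 for *S1pr1* and 0.2999 for *S1pr4* in neutrophils, and the ratio of *Ccr7* shares in CD8 T was 0.272. Doubled marker minimums gave 0.468 for *S1pr4* and 0.688 for *Cd69* in CD4 T, and the mean of the cells' CPM gave 0.520 for *Klf2* in CD8 T. Gates set on thinned counts, added after seeing the data, gave 1.28 for *Cd69* in CD8 T, 0.444 for *Ccr7* and 0.643 for *Klf2* in CD4 T and 1.00 for *Klf2* in B. The cause was not tested. Leaving out cycling cells, also added then, changed no direction in CD8 T. Genes past 1.5-fold, higher then lower in twi, numbered 2294 and 1043 in CD8 T, 1029 and 757 in CD4 T, 822 and 922 in NK, 941 and 1535 in B and 881 and 955 in neutrophils at a minimum of 10 UMIs. With no minimum they numbered 4627 and 2118, 3685 and 3069, 3236 and 2845, 2143 and 3904, and 2439 and 4135 in that order, and at a fold of 2, 662 and 161, 105 and 66, 79 and 82, 88 and 321, and 128 and 151; a lower minimum admits genes of few UMIs, and a higher fold admits fewer genes. The neutrophil and NK values of *Ccr7* and *S1pr1* rest on too few UMIs to give a direction.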
